A study of Mus musculus with 12 samples.

Results

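The genes described here encode the subunits of RNA polymerases I, II and III. They were chosen by symbol, as every gene of the expression table whose mouse symbol begins with Polr1, Polr2 or Polr3, with the older symbols Znrd1, Twistnb and Cd3eap counted as Pol I genes. This gave 32 of the 15651 genes in the table. Of these, 31 were counted as subunit genes and 1, Polr2k-ps, is a processed pseudogene. The subunit genes divide into 6 of Pol I, 8 of Pol II, 10 of Pol III and 7 shared between polymerases. Polr2m, which encodes a protein associated with Pol II, was counted with Pol II. Crcp, a Pol III subunit whose symbol falls outside the rule, is not in the class of 10.

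RNA was sequenced from mouse acute myeloid leukemia (AML) cells treated with CCS1477 (inobrodib), a small molecule that binds the bromodomains of the acetyltransferases p300 and CBP, or with its solvent DMSO. D/F mice carried Dnmt3afl/fl, Flt3ITD/ITD and Mx1Cre, and T/F mice carried Tet2fl/fl, Flt3ITD/ITD and Mx1Cre. All groups therefore shared the internal tandem duplication in Flt3 and the interferon-inducible Mx1Cre. Neither strain was given pIpC, so that 1 or both floxed alleles had been deleted spontaneously and to an extent that the expression values do not give. Splenocytes of moribund mice, 3 per genotype, were enriched for c-Kit with magnetic beads and cultured with SCF, IL6 and IL3. The cells of each mouse were divided between CCS1477 and DMSO for 6 hours, which made 12 libraries in 4 groups of 3. CCS1477 was used at 4 µM in D/F cells and at 2 µM in T/F cells, so genotype and dose cannot be told apart when the responses are compared. The ages of the mice are not given in the labels.

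Expression is in TPM, a transcript abundance that is divided by transcript length and scaled to a fixed total, so levels can be compared between genes. TPM is a share of the RNA sequenced in each library, and a change in the total RNA of the cells cannot be seen in it. Read numbers per gene were not available, and the precision of every value is the spread between 3 mice. In bulk RNA, fewer cells of a type and less RNA per cell cannot be told apart. Each library had progenitor markers, and their summed TPM was lower with CCS1477 in all 6 mice. This list of 8 genes (Ptprc, Kit, Cd34, Flt3, Mpo, Elane, Spi1, Cebpa) summed to between 2526 and 6611 TPM in D/F DMSO cells and between 705 and 2895 with CCS1477, and to between 2392 and 3657 in T/F DMSO cells and between 1078 and 1868 with CCS1477. Most of this sum came from Mpo and Elane, while Ptprc lay between 0.826 and 3.11 TPM, with means of 1.24 TPM in DMSO and 1.95 TPM in CCS1477 for D/F (not called) and a lower level with CCS1477 for T/F (called). Of the 8 genes, limma called 2 lower in D/F cells and 6 in T/F cells, and 7 and 8 with mouse as a block in the fit. Megakaryocyte markers summed to between 20.1 and 199 TPM, and mast cell or basophil markers to between 17.0 and 176 TPM, with both maxima in the DMSO library of D/F replicate 2, and both sums were lower with CCS1477 in all 6 mice. Of 3 megakaryocyte markers, limma called 0 (D/F) and 1 (T/F) lower, or 2 and 3 with the block. Of 2 mast cell or basophil markers it called 0 (D/F) and 1 (T/F) lower, or 1 and 2 with the block. The shares of all genes called by these fits stand beside the counts of subunit genes further on. T cell markers summed to at most 25.7 TPM, erythroid markers to at most 24.5, B cell markers to at most 2.39 and NK cell markers to at most 8.54, and the defining markers Cd3e, Cd79a, Ms4a1 and Ncr1 had no row in the table. Fcer1a and Tpsb2 also had no row, so the mast cell or basophil sum is that of Cpa3 and Mcpt8. Without the block, limma called 0 of the T cell, erythroid, B cell and NK cell markers. With it, 2 of 4 erythroid markers were called lower in T/F, and the NK cell marker Klrb1c was called lower in D/F. Klrb1c lay between 1.27 and 8.54 TPM in D/F DMSO cells and between 0 and 0.461 with CCS1477. The part of all these markers in the responses of the polymerase genes was not tested.

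Each of the 3 nuclear polymerases makes its own kinds of RNA. Pol I transcribes the large ribosomal RNA precursor in the nucleolus, Pol II transcribes messenger RNAs and many noncoding RNAs, and Pol III transcribes transfer RNAs, the small 5S ribosomal RNA and other short RNAs. The enzymes are built on a common plan, in which the largest and the second largest subunit form the catalytic cleft, an alpha-like pair of subunits holds the core together, a stalk reaches out toward the new RNA, and a set of small subunits is used by all 3 enzymes. Ribosome production depends on all of them, and growing blood cells and leukemias make ribosomes at a high rate.

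To show the regulatory sequence of members that moved in different directions, the promoters of 4 genes are printed. They are Polr1b, whose fall with CCS1477 was the deepest among the subunits, Cd3eap and Polr3e, which were also lower, and Polr3gl, which was higher. The sequences are from RefSeq on the GRCm38.p6 assembly, run from 250 bases before the annotated transcription start to 30 bases after it, 5′ to 3′ on the strand of the gene, and carry any CACGTG in capitals. This palindromic hexamer is the canonical E-box, known as a binding sequence of MYC with MAX and of other bHLH proteins. The windows are at chr2:129100746-129101025, plus strand, for Polr1b, at chr7:19359454-19359733, minus strand, for Cd3eap, at chr7:120917528-120917807, plus strand, for Polr3e, and at chr3:96594152-96594431, minus strand, for Polr3gl.
Polr1b: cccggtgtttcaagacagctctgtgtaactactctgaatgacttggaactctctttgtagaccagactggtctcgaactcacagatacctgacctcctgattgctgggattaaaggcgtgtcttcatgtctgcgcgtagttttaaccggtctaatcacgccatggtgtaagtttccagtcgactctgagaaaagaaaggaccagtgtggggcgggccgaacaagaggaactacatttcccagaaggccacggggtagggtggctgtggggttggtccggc
Cd3eap: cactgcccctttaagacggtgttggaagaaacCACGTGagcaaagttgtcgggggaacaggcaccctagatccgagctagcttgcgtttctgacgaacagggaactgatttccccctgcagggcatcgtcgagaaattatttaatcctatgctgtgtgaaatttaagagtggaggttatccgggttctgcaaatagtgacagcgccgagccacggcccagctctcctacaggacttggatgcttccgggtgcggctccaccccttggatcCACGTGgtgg
Polr3e: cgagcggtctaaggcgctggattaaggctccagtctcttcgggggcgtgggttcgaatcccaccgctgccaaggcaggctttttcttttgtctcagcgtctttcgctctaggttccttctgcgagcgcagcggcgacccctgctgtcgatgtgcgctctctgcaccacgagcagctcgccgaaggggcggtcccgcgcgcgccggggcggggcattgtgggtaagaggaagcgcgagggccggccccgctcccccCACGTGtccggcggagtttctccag
Polr3gl: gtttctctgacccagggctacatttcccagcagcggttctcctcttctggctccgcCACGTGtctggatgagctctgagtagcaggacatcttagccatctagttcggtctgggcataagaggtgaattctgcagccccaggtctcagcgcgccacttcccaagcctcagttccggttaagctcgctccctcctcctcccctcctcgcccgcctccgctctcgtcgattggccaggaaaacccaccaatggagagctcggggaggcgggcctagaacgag

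A RefSeq window of 300 bases, 250 before and 50 after the start, was matched to 25 of the 31 subunit genes. Those without one included Polr2d, Polr2g, Polr2k, Polr3a and Polr3d. CACGTG was present in the windows of 5 genes, which is 20.0% of the 25, against 11.3% of the 10622 genes of the expression table that had a window and 8.09% of all 27025 genes with one. The hexamer reads the same on both strands. The 5 were Cd3eap with copies starting at -218 and 21, counted from the first transcribed base as 1, Polr3c at -237, Polr3e at 6, Polr3gl at -194 and Polr2h at 24. It was in 1 of 6 Pol I windows, 0 of 6 Pol II windows, 3 of 7 Pol III windows and 1 of 6 windows of shared subunits. Genes holding the hexamer included ones that were lower with CCS1477 and 1 that was higher. Polr3c, which also held it, differed by -0.06 over both genotypes and was not called (limma adjusted p = 0.433). Neither Polr1a nor Polr1b held the hexamer in this window.

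To compare the polymerases, CCS1477 was first set against DMSO within each genotype with limma on log2(TPM + 1), and a gene was called at a Benjamini-Hochberg adjusted p under 0.05 over all genes tested, whatever the size of its change. The 31 subunit genes were all above the filter of 1 TPM. In D/F cells 6 of them were called lower and 1 higher, where 6.51% of all 15501 genes were called lower and 5.14% higher (11.6% in either direction). Those called lower included the Pol I genes Polr1a, Polr1b, Polr1e, Cd3eap and Twistnb, and the member called higher was Polr2a. Without D/F replicate 1, and also without D/F replicate 3, limma called 0 members and 0 genes of the whole table, with 8 members and 2494 and 2330 genes at an unadjusted p under 0.05. Without D/F replicate 2, whose marker levels stand apart, 6 members were lower and 2 higher, where 24.6% of all genes were called. With mouse as a block in the fit, 8 were called lower and 2 higher, against 39.3% of all genes called in either direction.

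In T/F cells 15 members were called lower and 2 higher, where 17.6% of 15256 genes were called lower and 25.8% higher (43.4% in either direction). Of these, Pol I had 5 lower of 6, Pol II 1 lower and 1 higher of 8, Pol III 5 lower and 1 higher of 10, and the shared subunits 4 lower of 7. Without T/F replicate 1 the count of lower members dropped to 9, where 22.8% of all genes were called in either direction. In a joint fit of the 6 mice with a term for genotype, 14 members were called lower and 2 higher. In this fit 19.6% of 15583 genes were called lower and 25.8% higher (45.3% in either direction). Quantile normalization gave 13 and 4 members, where 48.6% of all genes were called. With mouse as a block, 54.1% of all genes were called in T/F and 60.3% over both genotypes. Changes above 2-fold were fewer, with 3 members lower and 1 higher in D/F (4.61% and 2.67% of all genes) and 6 lower and 1 higher in T/F (4.7% and 2.63%).

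The 3 enzymes had different medians. In D/F and T/F cells, respectively, the Pol I genes had a median log2 fold change of -0.95 and -1.06, the Pol II genes of 0.03 in both (-0.01 and -0.05 with libraries rescaled to the median gene), the Pol III genes of -0.18 and -0.30, and the shared subunits of -0.23 and -0.35. All genes tested had medians of 0.06 and 0.07. These are descriptions of the lists, without a test of the difference between them. The order was seen in every mouse at its ends: the Pol I median over the 6 genes was lowest in each of the 6 mice, between -1.14 and -0.82, and the Pol II median lay between -0.10 and 0.09. Pol III medians were between -0.38 and -0.13, and those of the shared subunits between -0.42 and -0.24.

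**Figure D1:**
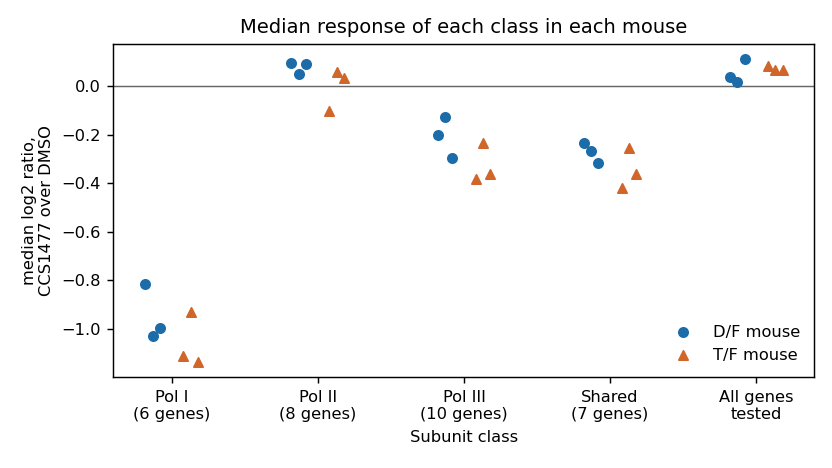
Median log2 ratio of TPM + 1 (CCS1477 over DMSO in the same mouse, vertical axis) for the genes of each subunit class and for all genes tested, with 1 point per mouse and D/F mice as circles and T/F mice as triangles. The 6 Pol I points lie between -1.14 and -0.82, apart from every other class, and the Pol II points lie near those of all genes.

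Of the 6 Pol I genes, 5 were lower in all 6 mice. Among the Pol II genes 0 were lower in all 6 mice and 2 were higher in all 6, Polr2a and Polr2m. Among the Pol III genes 5 were lower and 2 higher in all 6 mice, and among the shared subunits 6 were lower and 0 higher. The share of all genes with the same direction in all 6 mice was not computed. These counts take differences of any size. They include Polr2m, Polr3b and Polr2l, with 0.06, 0.07 and -0.11 over both genotypes, which limma did not call. The values of the 3 CCS1477 cultures did not overlap those of the 3 DMSO cultures, on the lower side, for 5 Pol I, 0 Pol II, 4 Pol III and 3 shared genes in D/F (16.7% of all genes) and for 5, 3, 7 and 4 in T/F (22.6% of all genes).

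**Figure D2:**
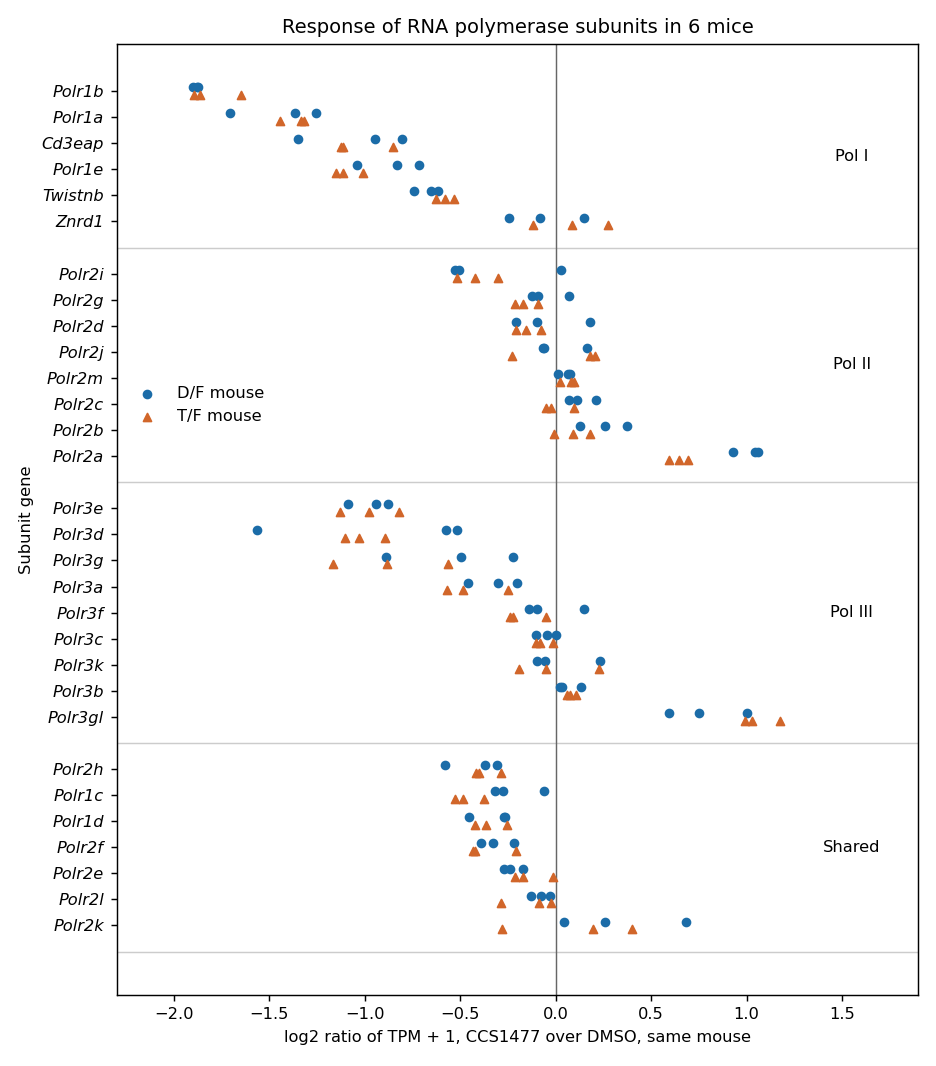
Log2 ratio of TPM + 1 between CCS1477 and DMSO cells of the same mouse (horizontal axis) for the subunit genes, grouped by class and without 1 gene that is counted but not shown, with D/F mice as circles and T/F mice as triangles. Pol I genes other than Znrd1 lie left of zero in all 6 mice, Polr2a and Polr3gl lie furthest to the right, and most Pol II genes lie around zero.

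The catalytic subunits of each enzyme come first. Polr1a (chr6:71909053-71984935, plus strand, GRCm38), the largest subunit of Pol I, measured 43.9, 45.2 and 56.9 TPM in DMSO and 16.4, 13.1 and 23.2 TPM in CCS1477 in D/F mice 1, 2 and 3. In T/F mice it measured 51.1, 45.0 and 52.0 TPM in DMSO and 18.2, 17.4 and 20.1 TPM in CCS1477. Every CCS1477 culture was below every DMSO culture. Polr1a fell by 1.44 on the log2 scale in D/F (SE 0.24, limma adjusted p = 0.0186) and by 1.36 in T/F (SE 0.09, limma adjusted p = 0.000449).

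Polr1b (chr2:129100995-129126594, plus strand), the second largest subunit of Pol I, had the deepest fall of all members. Its levels were 70.9, 104 and 92.2 TPM in D/F DMSO cells and 18.6, 27.6 and 24.0 TPM with CCS1477. In T/F cells they were 79.4, 71.8 and 94.8 TPM in DMSO and 20.7, 22.2 and 25.3 TPM with CCS1477. The groups were far apart in both genotypes, with CCS1477 means at 0.263 of the DMSO mean in D/F and 0.277 in T/F. Polr1b fell by 1.88 (SE 0.22, limma adjusted p = 0.00834) in D/F and fell by 1.80 (SE 0.13, limma adjusted p = 0.000506) in T/F, on the log2 scale. The falls of Polr1a and Polr1b in D/F were of similar size without replicate 1 or 3 but were then not called by limma, with adjusted p between 0.111 and 0.188.

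Polr2a (chr11:69733997-69758637, minus strand), the largest subunit of Pol II, whose repeated C-terminal tail is phosphorylated during transcription, moved the other way. It measured 133, 137 and 126 TPM in D/F DMSO cells and 253, 283 and 264 TPM with CCS1477. In T/F cells it measured 132, 134 and 128 TPM in DMSO and 207, 203 and 208 TPM with CCS1477. DMSO levels were close to each other in all 6 mice, at 132 ± 3.77 TPM (SD, n = 6), the highest mean of any subunit gene, and all CCS1477 cultures were above them. Polr2a rose by 1.01 on the log2 scale in D/F (SE 0.14, limma adjusted p = 0.0109) and by 0.65 in T/F (SE 0.06, limma adjusted p = 0.000798). Without D/F replicate 1 or 3 the D/F rise was 1.05 and 0.99, with limma adjusted p of 0.177 and 0.226.

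Polr2b (chr5:77310147-77349324, plus strand), the second largest subunit of Pol II, stayed within a narrower range. It measured 73.2, 71.9 and 71.5 TPM in D/F DMSO cells and 79.9, 86.0 and 93.1 TPM with CCS1477, and 86.8, 69.6 and 75.0 against 86.2, 78.8 and 79.8 TPM in T/F. The D/F groups did not overlap and the T/F groups did. Its log2 differences were 0.25 in D/F (SE 0.14) and 0.09 in T/F (SE 0.10), neither called by limma (adjusted p = 0.273 and 0.519). Over both genotypes the difference of 0.17 was called with mouse as a block (limma adjusted p = 0.0453) and not without it (0.0914). Polr2b overlaps Igfbp7 on the opposite strand.

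Polr3a (chr14:24448696-24487058, minus strand), the largest subunit of Pol III, measured 20.9, 20.5 and 24.9 TPM in D/F DMSO cells and 16.8, 17.7 and 17.8 TPM with CCS1477. In T/F cells it measured 24.1, 22.1 and 24.6 TPM in DMSO and 15.9, 18.4 and 17.3 TPM with CCS1477. CCS1477 cultures were below DMSO cultures without overlap in both genotypes. The log2 difference was -0.32 in D/F (SE 0.15, limma adjusted p = 0.198), and Polr3a fell by 0.44 in T/F (SE 0.08, limma adjusted p = 0.00775), a call that was lost without T/F replicate 1 or 3 (limma adjusted p = 0.0779 and 0.0571).

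Polr3b (chr10:84622292-84727178, plus strand), the second largest subunit of Pol III, measured 22.9, 27.4 and 24.9 TPM in D/F DMSO cells and 25.2, 28.2 and 25.3 TPM with CCS1477. In T/F cells it measured 24.2, 21.6 and 23.8 TPM against 25.2, 23.4 and 25.2 TPM. The groups overlapped in both genotypes. Log2 differences were 0.06 and 0.08 (SE 0.15 and 0.07), with limma adjusted p of 0.815 and 0.412.

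**Figure D3:**
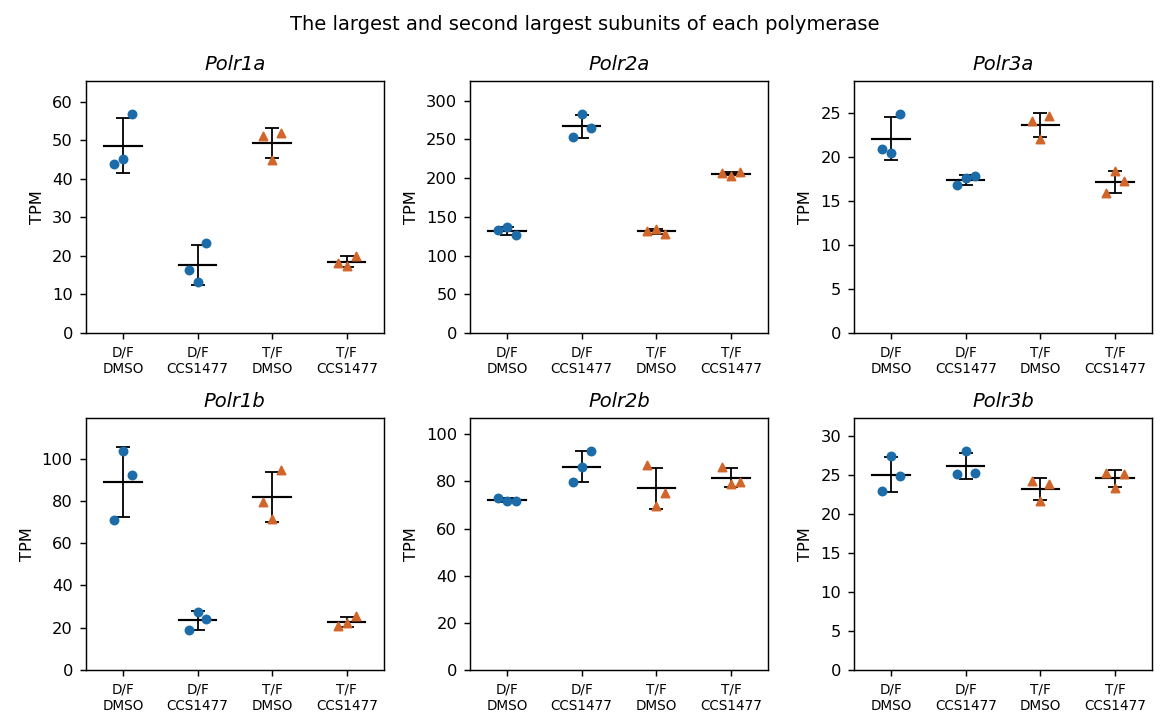
TPM (vertical axes, from zero, scaled to each gene) of the largest subunit (upper row) and second largest subunit (lower row) of Pol I, Pol II and Pol III in each of the 12 libraries, with horizontal lines for the mean and bars for the SD of 3 mice. Polr1a and Polr1b are low in both CCS1477 groups, Polr2a is high in both, and Polr2b and Polr3b differ little.

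Ratios within a library do not depend on how the libraries were scaled. They were computed for pairs picked with the values known, and are given as descriptions beside exact permutation tests of 3 libraries against 3, in which the smallest two-sided p is 0.1. Polr1a was at 0.370 ± 0.0687 of the Polr2a level in D/F DMSO cells and at 0.0664 ± 0.0208 with CCS1477, and at 0.377 ± 0.0368 and 0.0900 ± 0.00577 in T/F (SD, n = 3 each; exact permutation p = 0.1 in both). This ratio was 5.58 times lower with CCS1477 than with DMSO in D/F cells and 4.18 times lower in T/F cells. The ratio of Polr3a to Polr2a was 0.168 ± 0.0252 in DMSO and 0.0654 ± 0.00259 in CCS1477 for D/F, and 0.180 ± 0.0140 and 0.0836 ± 0.00689 for T/F (SD, n = 3 each; exact permutation p = 0.1 in both). Both ratios also hold the rise of Polr2a, whose CCS1477 mean was 2.02 times the DMSO mean in D/F and 1.57 times in T/F. Against this, Polr3a was at 0.789 and 0.729 of its DMSO mean, and Polr1a at 0.362 and 0.376. Among the second largest subunits the ratio of Polr3b to Polr2b overlapped between the treatments, with D/F means of 0.348 and 0.305 and T/F means of 0.303 and 0.302, while that of Polr1b to Polr2b did not, with D/F means of 1.24 and 0.271 and T/F means of 1.07 and 0.279 in DMSO and CCS1477.

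The other Pol I genes encode its peripheral subunits. Polr1e and Cd3eap form a heterodimer specific to Pol I that is related to the Pol II factor TFIIF. Polr1e measured 26.7, 32.2 and 40.5 TPM in D/F DMSO cells and 14.6, 19.2 and 19.2 TPM with CCS1477, and in T/F 40.3, 31.9 and 38.0 against 18.1, 15.3 and 16.6 TPM. Cd3eap measured 14.5, 16.6 and 18.1 TPM in D/F DMSO cells and 7.88, 5.89 and 8.90 TPM with CCS1477, and in T/F 20.7, 16.3 and 18.4 against 9.06, 8.59 and 7.86 TPM. Neither gene had overlapping groups. Polr1e fell by 0.86 in D/F and by 1.09 in T/F on the log2 scale (limma adjusted p = 0.0479 and 0.00119), and Cd3eap fell by 1.03 in each (limma adjusted p = 0.0241 and 0.00117). The D/F calls of both genes were lost without replicate 1 or 3, where limma called 0 genes of the whole table. Polr1e overlaps Fbxo10 and Cd3eap overlaps Ercc1 on the opposite strand, and the use of strand in the quantification is not given in the sources used here.

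Twistnb (chr12:33429635-33441392, plus strand), the main subunit of the Pol I stalk, measured 40.5, 44.9 and 46.2 TPM in D/F DMSO cells and 23.8, 28.2 and 29.7 TPM with CCS1477. In T/F it measured 42.2, 39.0 and 41.0 TPM against 27.9, 26.7 and 26.2 TPM. The groups did not overlap, and Twistnb fell by 0.67 (SE 0.15, limma adjusted p = 0.0417) in D/F and by 0.58 (SE 0.06, limma adjusted p = 0.00142) in T/F. Its D/F call was likewise lost without replicate 1 or 3. Znrd1 (chr17:36954356-36958559, minus strand), the small zinc ribbon subunit needed for cleavage of RNA in a stalled Pol I, was the exception in its class. It measured 52.1, 48.3 and 45.7 TPM in D/F DMSO cells and 49.1, 40.7 and 50.8 TPM with CCS1477, and in T/F 50.1, 44.4 and 52.5 against 53.2, 53.9 and 48.3 TPM. Both pairs of groups overlapped, with log2 differences of -0.06 (SE 0.16) and 0.08 (SE 0.09) and limma adjusted p of 0.839 and 0.502.

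Pol II genes other than Polr2a showed small differences. Polr2i (chr7:30231948-30233390, plus strand), the zinc ribbon subunit of Pol II, measured 58.0, 38.8 and 70.7 TPM in D/F DMSO cells and 40.6, 39.5 and 48.7 TPM with CCS1477, groups that overlapped. In T/F it measured 68.4, 66.8 and 58.5 TPM against 50.7, 46.5 and 47.3 TPM, without overlap. Polr2i fell by 0.41 in T/F (SE 0.08, limma adjusted p = 0.0107), and its D/F difference was -0.34 (SE 0.25, limma adjusted p = 0.402). The T/F call was lost without replicate 1 or 2 (limma adjusted p = 0.0679 and 0.112). Polr2i overlaps Tbcb on the opposite strand.

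Polr2g and Polr2d encode the stalk of Pol II. Polr2g (chr19:8793127-8798577, minus strand) measured 61.0, 42.1 and 58.9 TPM in D/F DMSO cells and 55.9, 39.4 and 61.9 TPM with CCS1477, and in T/F 65.0, 60.2 and 57.7 against 56.1, 56.3 and 51.1 TPM. Its groups overlapped in D/F and did not in T/F, with log2 differences of -0.05 and -0.16 (limma adjusted p = 0.917 and 0.145). Polr2d ranged from 30.8 to 54.7 TPM over the 12 libraries, with a log2 difference of -0.04 for D/F and of -0.15 for T/F. For the alpha-like pair Polr2c and Polr2j, differences over both genotypes were 0.07 and 0.03 (limma adjusted p = 0.672 and 0.843), and Polr2c overlaps Dok4 and Polr2j overlaps Lrwd1 on the opposite strand. Polr2m, which encodes Gdown1, an associated protein that competes with TFIIF for Pol II, ranged from 113 to 132 TPM and had a difference of 0.06 over both genotypes (limma adjusted p = 0.483).

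Pol III carries subcomplexes that resemble general factors of Pol II. Polr3d and Polr3e form the TFIIF-like heterodimer that acts in initiation and termination. Polr3d (chr14:70438757-70443447, minus strand), the least abundant Pol III gene with a DMSO mean of 11.4 TPM, measured 10.3, 11.7 and 9.92 TPM in D/F DMSO cells and 2.83, 7.86 and 6.34 TPM with CCS1477. In T/F it measured 13.2, 10.8 and 12.4 TPM against 5.93, 5.33 and 5.21 TPM. In neither genotype was there overlap, and D/F replicate 1 had the lowest value. The log2 difference was -0.89 in D/F (SE 0.32, limma adjusted p = 0.122), and Polr3d fell by 1.01 in T/F (SE 0.09, limma adjusted p = 0.000909).

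Polr3e (chr7:120917744-120947432, plus strand) measured 20.5, 30.9 and 27.0 TPM in D/F DMSO cells and 9.12, 15.6 and 14.3 TPM with CCS1477. In T/F it measured 26.3, 24.2 and 28.3 TPM against 11.5, 11.8 and 15.6 TPM. There was no overlap, and the CCS1477 mean was 0.497 of the DMSO mean in D/F and 0.494 in T/F. Polr3e fell by 0.98 in T/F (SE 0.13, limma adjusted p = 0.0027). Its D/F difference of -0.97 (SE 0.25) had a limma adjusted p of 0.0568, and of 0.00656 with mouse as a block. Over both genotypes the log2 differences of the TFIIF-like genes were -0.98 for Polr1e and -1.03 for Cd3eap in Pol I, and -0.95 for Polr3d and -0.97 for Polr3e in Pol III, and whether they differed from each other was not tested. The TFIIF genes themselves, Gtf2f1 and Gtf2f2, had 0.10 and -0.60 (limma adjusted p = 0.44 and 0.000794). Polr1e, Cd3eap and the pair of TFIIF genes were chosen for this after their values were seen.

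Pol III also has a trimer related to TFIIE, made of Polr3c, Polr3f and either Polr3g or Polr3gl. Polr3g is known from stem and other undifferentiated cells, and Polr3gl is the more widely expressed alternative. Polr3g (chr13:81673843-81711013, minus strand) measured 22.0, 27.5 and 20.6 TPM in D/F DMSO cells and 11.4, 23.4 and 14.3 TPM with CCS1477. In T/F it measured 31.6, 21.2 and 26.2 TPM against 13.5, 14.0 and 13.8 TPM. It was lower in each mouse, with overlap of the groups in D/F only, where the CCS1477 library of replicate 2 was above the DMSO library of replicates 1 and 3. Polr3g fell by 0.87 in T/F (SE 0.14, limma adjusted p = 0.00512), and its D/F difference was -0.54 (SE 0.28, limma adjusted p = 0.25), or -0.69 without replicate 2 (limma adjusted p = 0.0417).

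Polr3gl (chr3:96577872-96594181, minus strand) differed in the opposite direction to Polr3g. It measured 19.6, 37.1 and 17.7 TPM in D/F DMSO cells and 33.6, 56.4 and 36.5 TPM with CCS1477. In T/F it measured 18.0, 15.9 and 18.6 TPM in DMSO and 37.8, 37.2 and 37.9 TPM with CCS1477. The D/F groups overlapped through replicate 2, which was high in both treatments, and the T/F groups did not. Polr3gl rose by 1.06 in T/F (SE 0.08, limma adjusted p = 0.000503). The D/F difference of 0.78 (SE 0.33) had a limma adjusted p of 0.175, and of 0.013 with mouse as a block. Without replicate 2 it was 0.88 (limma adjusted p = 0.0205).

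The ratio of Polr3g to Polr3gl in a library was 1.01 ± 0.230 in DMSO and 0.382 ± 0.0387 in CCS1477 for D/F, and 1.50 ± 0.224 and 0.365 ± 0.00924 for T/F (SD, n = 3 each). It did not overlap between treatments in either genotype (exact permutation p = 0.1, the smallest possible). The invariant members of the trimer had small differences. Over both genotypes Polr3c differed by -0.06 and Polr3f by -0.10 (limma adjusted p = 0.433 and 0.271), and Polr3c, at 63.8 TPM in DMSO, had the highest mean of the Pol III genes. Polr3k, the zinc ribbon subunit of Pol III, differed by 0.01 (limma adjusted p = 0.942), close to Znrd1, which had 0.01 (limma adjusted p = 0.931). The zinc ribbon subunit of Pol II, Polr2i, did not share this and had -0.37 over both genotypes (limma adjusted p = 0.0327).

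**Figure D4:**
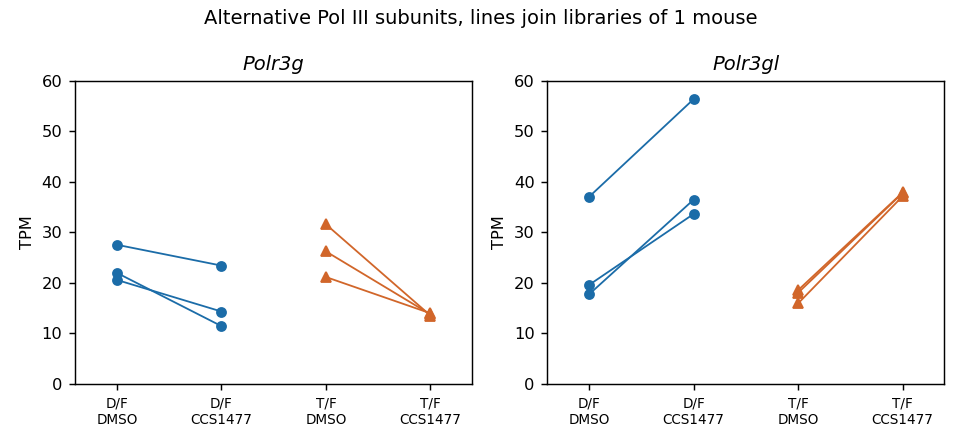
TPM (vertical axes, from zero) of Polr3g (left) and Polr3gl (right), with each line joining the DMSO and CCS1477 libraries of 1 mouse. All 6 lines go down for Polr3g and up for Polr3gl, and of the D/F mice, replicate 2 has the highest line in both panels.

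The shared subunits had medians between those of Pol I and Pol III. Polr1c and Polr1d form the alpha-like pair used by Pol I and Pol III, while Polr2c and Polr2j form that of Pol II. Polr1c (chr17:46243920-46248054, minus strand) measured 53.2, 48.2 and 54.8 TPM in D/F DMSO cells and 43.8, 46.1 and 43.8 TPM with CCS1477, and in T/F 57.5, 50.9 and 53.9 against 39.6, 36.1 and 41.4 TPM. No groups overlapped. Polr1c fell by 0.46 in T/F (SE 0.08, limma adjusted p = 0.0065), and its D/F difference was -0.22 (SE 0.14, limma adjusted p = 0.334). Without T/F replicate 1 the T/F call was lost (limma adjusted p = 0.0659). Polr1d fell by 0.35 in T/F (limma adjusted p = 0.00658), with a D/F difference of -0.33 (limma adjusted p = 0.326), and overlaps Rps10-ps4 on the opposite strand.

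The other 5 shared subunits belong to all 3 enzymes. Polr2h (chr16:20717665-20722267, plus strand) measured 31.0, 34.4 and 37.6 TPM in D/F DMSO cells and 24.9, 22.6 and 28.9 TPM with CCS1477, and in T/F 33.2, 33.2 and 36.0 against 24.5, 27.0 and 27.0 TPM. It had no overlap between treatments. Polr2h fell by 0.37 in T/F (SE 0.07, limma adjusted p = 0.00911), a call lost without replicate 1 or 2 (limma adjusted p = 0.0719 and 0.068). Its D/F difference was -0.42 (SE 0.16), with a limma adjusted p of 0.142 and of 0.037 with mouse as a block. Polr2h overlaps Clcn2 on the opposite strand.

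Polr2l (chr7:141471860-141475132, minus strand), a small zinc-binding subunit, measured 17.6, 18.9 and 20.3 TPM in D/F DMSO cells and 17.2, 17.1 and 19.2 TPM with CCS1477, and in T/F 18.3, 17.0 and 20.5 against 17.9, 16.0 and 16.6 TPM. The groups overlapped, with log2 differences of -0.08 and -0.13 (limma adjusted p = 0.754 and 0.273). Polr2k (chr15:36174010-36177010, plus strand), another small zinc-binding subunit, measured 10.7, 9.35 and 7.97 TPM in D/F DMSO cells and 11.1, 11.4 and 13.4 TPM with CCS1477, and in T/F 9.47, 11.8 and 9.88 against 12.8, 9.49 and 11.5 TPM. Its D/F groups did not overlap and its T/F groups did, with log2 differences of 0.33 and 0.10 (limma adjusted p = 0.244 and 0.557). The value of Polr2k is uncertain, because the pseudogene Polr2k-ps (chr11:95761491-95761665, inside Zfp652) derives from it and can share its reads. Polr2k-ps was listed at 7.31 to 31.7 TPM in D/F and at 15.2 to 16.0 TPM in T/F, and it was kept out of the classes and counts. Polr2f fell by 0.36 in T/F (limma adjusted p = 0.0115), and Polr2e had differences of -0.23 and -0.13 that limma did not call (adjusted p = 0.329 and 0.261). Over both genotypes, Polr2f at -0.33 and Polr2e at -0.18 were called with mouse as a block (limma adjusted p = 0.0013 and 0.0174) and not without it (0.0809 and 0.0565).

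To ask whether the genotypes differed, T/F cells were compared with D/F cells within each treatment, and the difference of the responses was tested. In DMSO, limma called 0 of the 31 members between the genotypes, with 0 at an unadjusted p under 0.05, where 5 of 15265 genes were called (0.0328%). In CCS1477 it called 0 members, with 1, Polr2a, at an unadjusted p under 0.05, where 5 of 15199 genes were called (0.0329%). The difference of the responses was called for 0 of 15583 genes (0% of the table, 659 at an unadjusted p under 0.05). Polr2a was the 1 member at an unadjusted p under 0.05, with a T/F response lower than the D/F response by 0.36 on the log2 scale (SE 0.12, limma adjusted p = 1). Since the D/F cells had the higher dose, genotype and dose cannot be told apart here.

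Factors that work with the polymerases were examined as lists. Their counts stand beside 43.4% of all genes called in T/F (17.6% lower and 25.8% higher) and 11.6% in D/F (6.51% and 5.14%), or 54.1% and 39.3% in either direction with mouse as a block. The Pol I list holds the initiation factor Rrn3, the architectural factor Ubtf, the TATA-binding protein associated factors Taf1a, Taf1b, Taf1c and Taf1d of the promoter selectivity complex SL1, and the terminator Ttf1. Of these 7, limma called 4 lower and 1 higher in T/F and 0 in D/F. Mouse as a block gave 5 and 1 in T/F, and 3 and 1 in D/F. Their log2 fold changes had a median of -0.38 (D/F) and -0.52 (T/F). Taf1d fell by 0.86 in T/F and had -0.45 in D/F (limma adjusted p = 0.000997 and 0.123), Taf1a fell by 0.63 and had -0.48 (limma adjusted p = 0.0149 and 0.101), and Rrn3 fell by 0.53 and had -0.47 (limma adjusted p = 0.00129 and 0.174). Ttf1 rose by 0.44 in T/F and had 0.51 in D/F (limma adjusted p = 0.0133 and 0.0717). Rrn3 and Ttf1 were named after their values were seen.

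Of 15 general factors of Pol II, 3 were called lower and 4 higher in T/F and 0 lower and 2 higher in D/F. The T/F counts were near the shares of all genes in each direction. The D/F count was near the share called in either direction (11.6%), with both genes on the higher side (5.14% of all genes). Mouse as a block gave 4 and 4 in T/F, and 4 and 3 in D/F. Their medians were 0.13 (D/F) and -0.05 (T/F). Gtf2h1, a subunit of the helicase factor TFIIH, fell by 0.88 in T/F and had -0.76 in D/F (limma adjusted p = 0.000801 and 0.0637). Gtf2a1, of the factor TFIIA that steadies TBP on the promoter, rose by 0.54 in T/F and by 0.92 in D/F (limma adjusted p = 0.00435 and 0.046). Gtf2b, the second of the pair called higher in D/F and so named after its value was seen, rose by 0.73 there and by 0.44 in T/F (limma adjusted p = 0.0357 and 0.00383).

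Of 17 Pol III genes outside the symbol rule, 16 had a row in the table. Limma called 6 of them lower and 8 higher in T/F, and 1 lower and 0 higher in D/F. Mouse as a block gave 6 and 8 in T/F, and 4 and 7 in D/F. The medians were 0.11 (D/F) and 0.16 (T/F). This list holds Crcp, a Pol III subunit that is not in the class medians and counts above. Crcp had means of 33.3 TPM in DMSO and 28.5 TPM in CCS1477 for D/F, and 36.2 and 31.0 TPM for T/F. Gtf3c6, a subunit of the DNA-binding factor TFIIIC, fell by 1.39 in D/F and by 0.89 in T/F (limma adjusted p = 0.00873 and 0.00103). Snapc4, of the complex that binds small nuclear RNA promoters, fell by 0.67 in T/F and had -0.75 in D/F (limma adjusted p = 0.0126 and 0.0614). Maf1, the conserved repressor of Pol III, named after its value was seen, rose by 0.71 in T/F and had 0.57 in D/F (limma adjusted p = 0.000834 and 0.114). With mouse as a block, the D/F differences of Taf1a, Taf1d, Rrn3, Ttf1, Gtf2h1, Snapc4 and Maf1 were also called (limma adjusted p between 0.00915 and 0.0348).

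Assembly and import of the polymerases depend on the R2TP cochaperone, RPAP proteins and GPN GTPases. Of these 10 genes, limma called 6 lower and 2 higher in T/F and 0 in D/F. Mouse as a block gave 5 and 2 in T/F, and 4 and 1 in D/F. The medians were -0.21 (D/F) and -0.29 (T/F). The ATPases Ruvbl1 and Ruvbl2, which also serve in chromatin remodelers, had the largest differences. Ruvbl2 fell by 1.09 and Ruvbl1 by 0.71 in T/F (limma adjusted p = 0.000415 and 0.000937), with D/F differences of -1.11 and -0.98 (limma adjusted p = 0.114 and 0.054, and 0.0052 and 0.00662 with mouse as a block). Mitochondria use a polymerase of a different family, Polrmt, with Tfam, Tfb1m and Tfb2m. Of these 4 genes 1, Tfb2m, was called lower in T/F, by 0.48 (limma adjusted p = 0.00707), and 0 in D/F. Mouse as a block gave 1 lower in T/F and 0 in D/F. Tfb1m had the other of the largest changes and was not called in either genotype. Its means were 18.6 TPM in DMSO and 21.3 TPM in CCS1477 for D/F, and 17.1 and 19.4 TPM for T/F. Polrmt, named as the polymerase itself and not by the size of its change, had differences of 0.21 and -0.07 (limma adjusted p = 0.417 and 0.658).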

How the data were processed

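RNA-seq values of 12 libraries were used. The authors deposited gene-level TPM per library, and the submitters' processing notes name kallisto and mm10, while the paper's methods name AltAnalyze. The annotation is not given in the sources used here. The lowest row maximum was 2.00 TPM, so the table had been filtered on low values before deposit. Libraries summed to between 914204 and 931697 TPM. TPM holds no read numbers, so depth per gene is unknown, no count model was fitted and no counting interval is given. Of 15651 identifiers, 15252 had a symbol in the GENCODE annotation of GRCm38, which also gave positions.

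Log2(TPM + 1) was fitted with limma 3.58.1 (R 4.3.3), using eBayes with no trend and two-sided tests, for genes reaching a group mean of 1 TPM. Log2 differences are on that scale and understate changes of low genes. The fits were tested on simulated data. Replicates of a group were correlated at 0.947 to 0.991 across genes, and none were identical. The DMSO and CCS1477 libraries with the same replicate number come from 1 mouse by the labels. Deviations from group means were correlated at 0.34 to 0.655 within a mouse and at -0.489 to 0.132 between mice. The deviations of a group cancel, so positive values within a mouse push those between mice down. The gap between them is therefore partly set by the computation. The fit without mouse is the main one and the fit with mouse as a block is given beside a member where it changes its call, and beside the counts of the lists.

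Given in full are the pair of largest subunits of each enzyme, Polr3g and Polr3gl, and the pairs of lowest and highest log2 fold changes over both genotypes in each class. Other lists are given by counts and their pair of largest changes. Polr1e and Cd3eap were added to those in full after their values were seen. The members, lists and tests were chosen with earlier results of these data known. Alternatives were eBayes with a trend, a filter at 5 TPM or none, 0.1 as pseudocount, libraries rescaled to the median gene, quantile normalization, the mouse block, 1 fit of 4 groups, library weights, a 2-fold limit and leaving out each mouse. Protein sequences were not analysed here, and 1 subunit gene is in the counts and medians but is not reported here.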

Additional observations from a re-analysis of the deposited data

How the results depend on the processing

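Pol I kept the lowest median of the 4 classes under the alternatives run, with D/F values between -1.01 and -0.91 and T/F values between -1.14 and -1.02. Of the counts of called members, those in D/F depended most on the processing. Lower members in D/F numbered 10 in 1 fit of the 4 groups (31.9% of all genes called) and 3 above 2-fold, and 0 to 6 when a mouse was left out (24.6% of all genes called without replicate 2, and 0 genes without replicate 1 or 3). Higher members in D/F numbered 2 with the replicate block, 2 in 1 fit of the 4 groups and 0 to 2 when a mouse was left out. Of the 7 members called in D/F, 6 kept their call with 0.1 as pseudocount, and 6 without replicate 2. In T/F, 6 members were lower and 1 higher above 2-fold (4.7% and 2.63% of all genes). Lower members in T/F numbered 9 to 13 when a mouse was left out. Of all genes, 22.8%, 20.9% and 33.7% were called without T/F replicates 1, 2 and 3. Over both genotypes 3 were lower and 0 higher above 2-fold, where 888 of 15583 genes were lower and 483 higher. Quantile normalization gave 4 higher over both genotypes, where 48.6% of all genes were called in either direction. The Pol II median in D/F was -0.0140 with libraries rescaled to the median gene, 0.14 with quantile normalization and 0.0150 to 0.0599 when a mouse was left out, and in T/F it was -0.0512 after rescaling and -0.0302 to 0.0471 when a mouse was left out. The median of the shared subunits in D/F was -0.27 after rescaling and -0.27 to -0.22 when a mouse was left out. After rescaling, 29 of the 31 members kept their sign in D/F and 27 in T/F and over both genotypes. Among members given in full by the rule, Znrd1 and Polr2k, never called, changed sign: leaving out a mouse gave -0.164 to 0.0332 for Znrd1 in D/F, -0.0164 to 0.180 for Znrd1 in T/F and -0.0439 to 0.297 for Polr2k in T/F, and rescaling gave -0.000381 for Znrd1 in T/F. The cause of these changes was not tested. Paired by mouse, the replicate block gave 8 lower and 2 higher members in D/F, 15 and 2 in T/F, and 16 and 3 over both genotypes. Of all genes, the block called 39.3%, 54.1% and 60.3% in these fits, in either direction.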
